A study of Mus musculus with 59 samples.

Results

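The acute phase proteins described here are the products of 10 genes: the serum amyloid A genes Saa1, Saa2 and Saa3, the orosomucoid genes Orm1 and Orm2, haptoglobin (Hp), hemopexin (Hpx), lipocalin 2 (Lcn2), serum amyloid P component (Apcs) and the fibrinogen beta chain (Fgb). The genes were taken by name, and every probe whose accession mapped to one of these symbols was used. Each gene had exactly 1 probe, so the set made up 10 of the 55681 probes tested. Adult male Muta™Mouse, a transgenic line whose animals all carry a lacZ reporter, were about 16 weeks old and received benzo(b)fluoranthene (BbF), a polycyclic aromatic hydrocarbon of combustion, in olive oil by oral gavage for 28 days. The groups received 0 (vehicle, olive oil alone, mice 1 to 5), 25 (low, mice 6 to 10), 50 (medium, mice 11 to 15) or 100 (high, mice 16 to 20) mg/kg-bw/day, and tissues were taken 72 h after the last dose. RNA from lung (19 arrays, with low-dose mouse 7 not analysed here), liver (20 arrays) and forestomach (20 arrays) of the same mice was hybridised in Cy5 against a universal mouse reference RNA in Cy3. Some label fields name benz(a)anthracene, whereas the sample titles and the doses are those of BbF. All levels below are log2(Cy5/Cy3), so 0 is the signal of the reference, and a level can be compared between tissues and mice for 1 gene but not between genes. A probe passed the test where limma gave a Benjamini-Hochberg adjusted p of at most 0.05 over all probes together with a change of at least 1.5-fold.

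Acute phase proteins are plasma proteins whose synthesis shifts during infection, injury and inflammation. Hepatocytes make most of them, under the control of interleukin 6, which acts through STAT3, and of interleukin 1 and tumour necrosis factor, which act through NF-kB and C/EBP factors. Saa3, Lcn2, Hp and the orosomucoids are also made outside the liver, among others by macrophages, epithelia and adipocytes. In the mouse, Saa1, Saa2 and Apcs respond most strongly, whereas haptoglobin, hemopexin and fibrinogen are already abundant at rest.

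The windows upstream of the serum amyloid A genes are printed because these genes gave the results in lung. They cover the 250 bases before the transcription start, read 5′ to 3′ on the strand of the gene from RefSeq (GRCm38.p6), and capitals mark matches to the C/EBP pattern TTNNGNAA on either strand. The genes are neighbours on chromosome 7, with the Saa1 window at chr7:46742981-46743230 (minus strand), the Saa2 window at chr7:46751583-46751832 (plus strand) and the Saa3 window at chr7:46715677-46715926 (minus strand).
Saa1: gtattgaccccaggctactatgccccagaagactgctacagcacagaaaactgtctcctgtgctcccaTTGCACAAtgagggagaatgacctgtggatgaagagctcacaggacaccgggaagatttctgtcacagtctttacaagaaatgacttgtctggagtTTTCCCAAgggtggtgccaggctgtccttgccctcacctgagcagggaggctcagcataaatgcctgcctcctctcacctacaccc
Saa2: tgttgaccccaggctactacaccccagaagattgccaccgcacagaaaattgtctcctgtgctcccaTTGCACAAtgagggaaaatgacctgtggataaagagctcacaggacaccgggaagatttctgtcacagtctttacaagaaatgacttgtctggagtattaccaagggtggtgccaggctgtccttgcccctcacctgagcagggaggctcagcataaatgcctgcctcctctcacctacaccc
Saa3: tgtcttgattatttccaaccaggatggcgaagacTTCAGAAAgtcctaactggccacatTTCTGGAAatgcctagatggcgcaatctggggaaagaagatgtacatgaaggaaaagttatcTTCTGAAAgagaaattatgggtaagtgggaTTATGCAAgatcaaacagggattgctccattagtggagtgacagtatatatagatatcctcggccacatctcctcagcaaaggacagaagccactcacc
The Saa1 and Saa2 windows were 94.8% identical (238 of 251 aligned columns), whereas the Saa3 window shared 48.5% with Saa1 and 47.8% with Saa2. TTNNGNAA matched at 2 places in the Saa1 window, 1 in Saa2 and 4 in Saa3. A window was at hand for 8 of the 10 genes, all but Orm1 and Hp, and 7 of the 8 held the pattern (Saa1, Saa2, Saa3, Orm2, Hpx, Lcn2 and Fgb), against 36.8% of all 32851 promoter windows. The STAT3 pattern TTCNNNGAA, searched on both strands like the others, was found in Apcs and Fgb (7.02% of all windows). The stricter C/EBP pattern TTGNNNCAA (5.02% of all windows), the NF-kB pattern (1.21%) and the aryl hydrocarbon receptor core GCGTG (28.2%) were in none of the 8. These matches describe letters only.

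Marker genes of each tissue were high in that tissue. The mean of the lung epithelium markers was 6.90 to 7.65 in lung, that of the hepatocyte markers 5.62 to 7.35 in liver, and that of the squamous keratins 4.5 to 5.13 in forestomach. The lung of low-dose mouse 6 stood apart, with a mean of the squamous keratins of 3.63 against -0.53 to -0.04 in the other lungs, and none of the 10 genes passed at the low dose in lung with or without it. Liver arrays were on 3 slides, and the third (vehicle mouse 5, low mice 6 and 10, medium mice 11 and 15, high mice 18, 19 and 20) stood apart. On it 11.1% to 13.5% of spots were well above background in the sample channel, against 38.5% to 47.4% on the other liver slides, 46.2% to 69.5% in lung and 41.0% to 53.3% in forestomach. The raw sample signal of Hp was 134179 to 178301 on the first and the second liver slide and 3051 to 5068 on the third, whereas the local background stayed between 63 and 71. Apcs lay at 5.37 ± 0.27 (SD, n = 12) on the first and the second slide and at 0.90 ± 0.22 (SD, n = 8) on the third. Orm1 and Orm2 lay at 7.84 ± 0.24 and 8.20 ± 0.13 on the former and at 4.39 ± 0.38 and 4.77 ± 0.38 on the third, while Hp moved little, from 6.49 ± 0.09 to 6.14 ± 0.25. Saa3 was well above background on 12 of 12 arrays of the first and the second slide and on 0 of 8 of the third. Liver dose effects were therefore fitted with the slide as a block, and the first slide held no high-dose mouse.

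In vehicle mice, the mean level was highest in liver for 9 of the 10 genes, and Lcn2 was highest in lung. Between liver and lung 9 of the 10 genes passed the test (24.4% of all probes did), between liver and forestomach 10 of 10 (20.1%), and between lung and forestomach 2 of 10 (19.1%). RNA was from whole tissue pieces, so fewer cells of a type and less RNA per cell cannot be told apart.

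**Figure D1:**
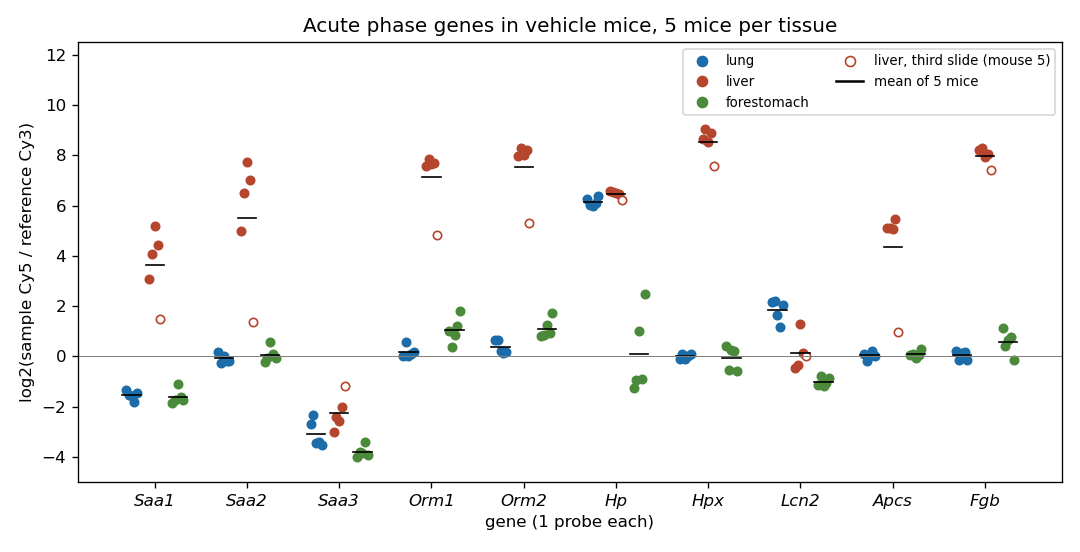
Level of each gene, as log2(Cy5/Cy3) on the vertical axis, in the 5 vehicle mice of each tissue (points, with black bars for the means and an open circle for the liver array of mouse 5, on the third slide). Liver points lie above the other tissues for Saa1, Saa2, Orm1, Orm2, Hpx, Apcs and Fgb, Hp is near 6 in both lung and liver, and Lcn2 has its highest mean in lung.

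Hpx, which binds free haem, stood at 8.55 ± 0.57 (SD, n = 5) in liver, 0.0033 ± 0.11 in lung and -0.05 ± 0.47 in forestomach. Its liver level exceeded that in lung by 8.54 ± 0.25 (SE) on the log2 scale (limma adjusted p = 4.2e-13), and lung and forestomach differed by 0.05 (95% interval -0.47 to 0.58). Fgb, a chain of the clotting protein fibrinogen, stood at 7.98 ± 0.35 in liver, 0.05 ± 0.17 in lung and 0.56 ± 0.47 in forestomach. It was well above background on 0 of 5 lung arrays. The liver excess was 244-fold by the ratio to the reference (adjusted p = 1.0e-13) and 3113-fold in the sample channel alone, and since these scales differ neither is given as a bound. The reference channel of this probe was itself well above background on 5 of 5 liver and 1 of 5 lung arrays, although the reference RNA was the same. Bounds given below as "at least" set the mean of the brighter group, after loess and quantile scaling of the average intensity, against the lowest signal well above background, and they are open to dye bias because dyes were not swapped.

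Orm1 and Orm2, the acid glycoproteins that bind drugs and lipids in plasma, stood at 7.13 ± 1.28 and 7.56 ± 1.26 (SD, n = 5) in liver. They lay at 0.18 ± 0.23 and 0.37 ± 0.27 in lung, where 1 and 2 of the 5 arrays were well above background, and at 1.05 ± 0.53 and 1.11 ± 0.38 in forestomach. For both genes the reference channel was well above background on 5 of 5 liver and 0 of 5 lung arrays, although the reference RNA was the same. By the ratio to the reference, liver exceeded lung by 6.95 ± 0.46 (SE) for Orm1 and 7.19 ± 0.44 for Orm2, and these differences are not exact. The gap between lung and forestomach did not pass for either gene (adjusted p = 0.19 and 0.26). The spread behind these p-values was shared with liver, where the SDs were 1.28 and 1.26. There vehicle mouse 5, on the third slide, lay at 4.85 for Orm1 and 5.32 for Orm2, below the other vehicle livers. Apcs, the pentraxin of mouse serum, stood at 4.36 ± 1.90 in liver and had no signal well above background in the lung and the forestomach of the 5 vehicle mice. Its liver level was at least 16.6-fold higher than in lung (adjusted p = 3.0e-05) and at least 17.4-fold higher than in forestomach (adjusted p = 4.5e-05). Mouse 5 on the third slide lowered the liver mean, and without it the differences rose from 4.31 to 5.16 against lung and from 4.26 to 5.15 against forestomach.

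The serum amyloid A genes, whose proteins ride on high-density lipoprotein, differed from each other across tissues. Saa1 stood at 3.65 ± 1.43 (SD, n = 5) in liver, -1.54 ± 0.17 in lung and -1.60 ± 0.30 in forestomach. Saa2 stood at 5.53 ± 2.52 in liver and near the reference elsewhere, with 0 of 5 lung arrays and 1 of 5 forestomach arrays well above background, and liver exceeded lung by 5.61 (adjusted p = 4.0e-05), or by 6.62 without mouse 5, whose liver array was on the third slide. As Saa2 was not measured above background in those lungs, this difference is not exact. Saa3, the member known for expression outside the liver, stood at -2.24 ± 0.70 in liver, -3.08 ± 0.54 in lung and -3.80 ± 0.23 in forestomach. Its liver excess over lung, 0.84 ± 0.30 (SE), passed the test (adjusted p = 0.035) but not with the mouse as a replicate block (adjusted p = 0.059). Without mouse 5, whose liver array did not measure it above background, the excess was 0.47 (adjusted p = 0.16), and the call was also lost without mouse 3 (0.83) or mouse 4 (0.70) and with median centring (0.46, adjusted p = 0.57).

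Hp and Lcn2 were the genes that passed between lung and forestomach. Hp, which binds free haemoglobin, stood at 6.16 ± 0.17 (SD, n = 5) in lung and 6.47 ± 0.13 in liver. The gap of 0.31 (95% interval -0.82 to 1.44), 1.24-fold and under the 1.5-fold limit, did not pass (limma adjusted p = 0.72). This interval and p rest on a spread shared with forestomach, where the SD was 1.61, and are wider than lung and liver alone would give. In forestomach Hp was at 0.09 ± 1.61, which was 6.07 ± 0.53 (SE) below lung (adjusted p = 1.8e-07). Lcn2, which binds bacterial siderophores, stood at 1.85 ± 0.44 in lung, 0.14 ± 0.70 in liver and -1.0 ± 0.19 in forestomach. Lung exceeded forestomach by 2.85 ± 0.28 (adjusted p = 6.6e-07), and the liver level was 3.27-fold lower than that in lung (adjusted p = 0.00011, and 0.051 with median centring).

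Across the 9 comparisons of a dose with vehicle, 2 of the 10 genes passed the test, both in lung at the high dose and both upward. There 1.45% of all probes passed, 807 in all (1.03% of all probes upward), and centring each array on its median in place of loess gave 3504, of which 98.94% were higher against 71.25% before. In liver the passing shares were 0%, 0.104% and 0.25% of probes from low to high dose, and in forestomach 0%, 0% and 0.07%, with none of the 10 genes among them. In lung at the low and medium doses 0.345% and 0.469% of probes passed, again with none of the 10. An unadjusted p under 0.05 was found for 5 of the 10 genes in lung at the high dose (18.4% of all probes), 2 in forestomach at the medium dose (5.68%), 1 in forestomach at the low dose (4.62%), 1 in liver at the high dose (11.4%) and 0 in lung at the low (9.07%) and medium (14.1%) doses, liver at the low (6.98%) and medium (9.48%) doses and forestomach at the high dose (8.7%). In the trend over dose 2 of the 10 passed in lung (1.23% of all probes), 0 in liver (0.277%) and 0 in forestomach (0.0611%), with an unadjusted limma p under 0.05 for 5, 1 and 0 of the 10 (17.8%, 11.8% and 8.57% of all probes). The median change of the 10 genes in lung at the high dose was 0.16, beside -0.0038 over all probes.

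**Figure D2:**
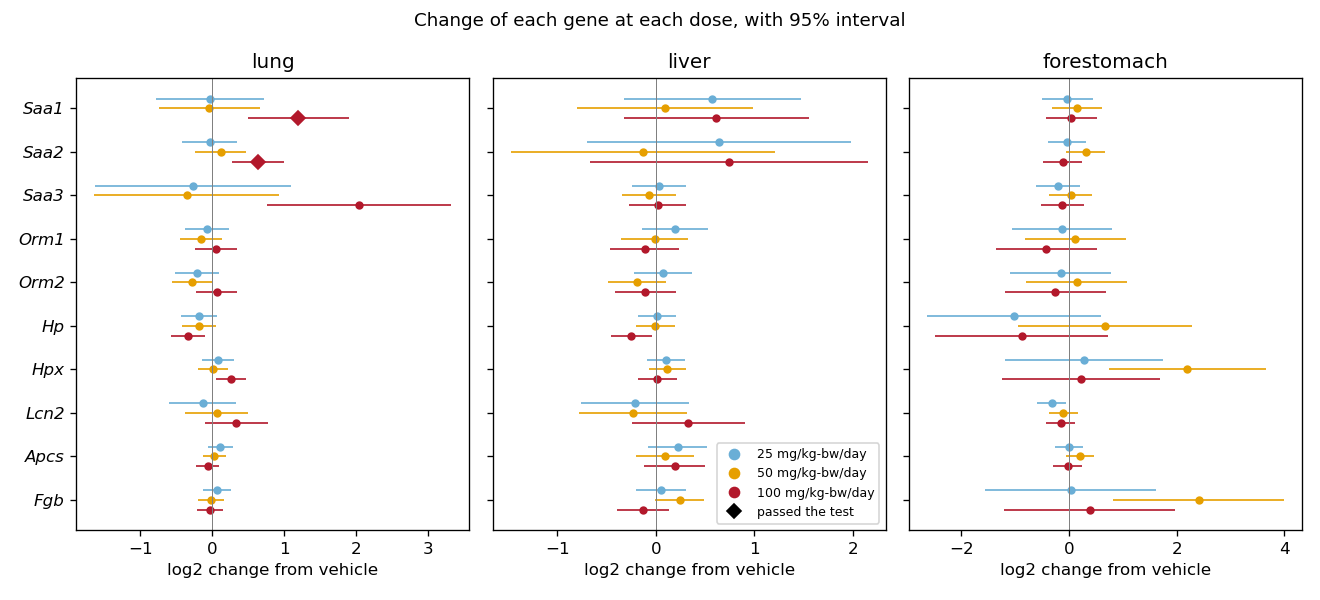
Change of each gene from vehicle on the log2 scale (horizontal axis, with 95% intervals from limma) at the low, medium and high dose in each tissue, with diamonds for the changes that passed the test. Diamonds appear for Saa1 and Saa2 at the high dose in lung, the interval of Saa3 there lies above 0, and the Fgb and Hpx points at the medium dose in forestomach lie to the right with wide intervals.

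In lung, the 3 serum amyloid A genes were high in some of the mice at the high dose and not in the others. Saa1 was at -1.46, -0.83, -1.20, 1.26 and 0.49 in high-dose mice 16, 17, 18, 19 and 20. Vehicle mice lay between -1.81 and -1.35, low-dose mice between -1.76 and -1.47 and medium-dose mice between -1.84 and -1.42. Mice 17 to 20 were thus above all vehicle mice, and mouse 16 was within their range. The change at the high dose was 1.19 ± 0.34 (SE), 2.29-fold (limma adjusted p = 0.038), and the trend over dose, per 100 mg/kg-bw/day, was 1.23 ± 0.35 (adjusted p = 0.038).

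Saa2 was at -0.11, 0.49, 0.43, 1.34 and 0.60 in the same mice, again with 4 of 5 above all vehicle mice (-0.25 to 0.18) and mouse 16 within their range. Its signal exceeded background clearly in 4 of 5 high-dose mice, 1 of 5 medium-dose mice and none of the others. The change of 0.63 ± 0.17 (SE, adjusted p = 0.029) is therefore given as a bound, at least 1.21-fold higher at the high dose than in vehicle mice. The trend of Saa2 was 0.67 ± 0.17 (adjusted p = 0.018).

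Saa3 had the largest change of the 10 genes in lung and the largest spread. It was at -3.44, -1.29, -2.46, 1.54 and 0.42 in mice 16 to 20, against -2.67, -2.35, -3.46, -3.40 and -3.52 in vehicle mice 1 to 5. Mice 17, 19 and 20 were above all vehicle mice, and low-dose (-4.18 to -2.66) and medium-dose mice (-3.73 to -3.06) were not. The change of 2.04 ± 0.62 (SE), 4.10-fold, did not pass (adjusted p = 0.054), nor did its trend of 2.13 ± 0.66 (adjusted p = 0.060). It passed with median centring (2.34, adjusted p = 0.0073) and after a filter on dim probes (adjusted p = 0.037), whereas Saa2 did not with median centring (0.41, adjusted p = 0.091).

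**Figure D3:**
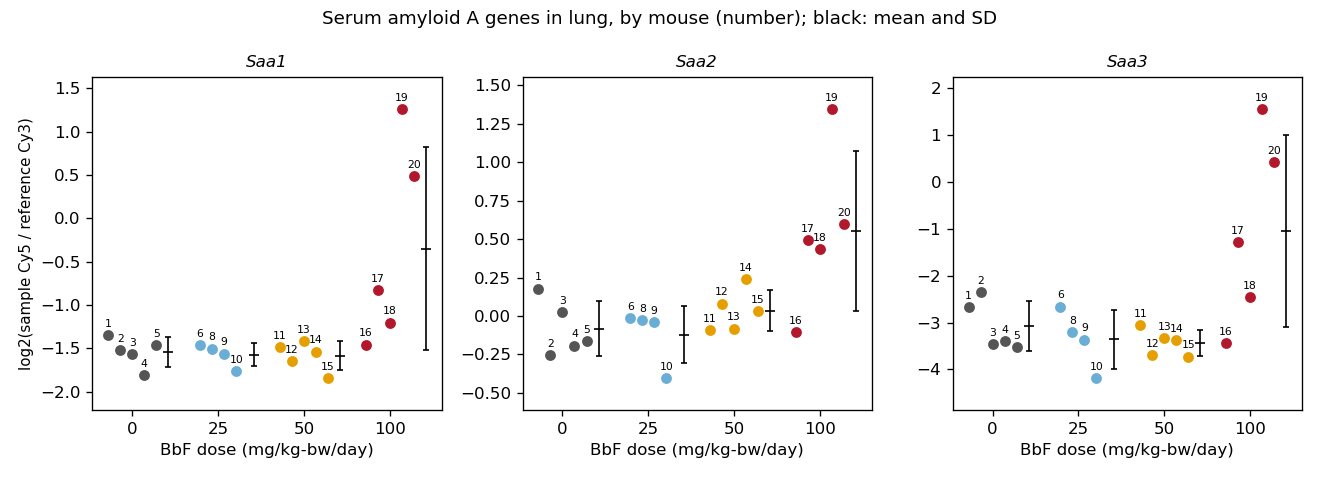
Levels of Saa1, Saa2 and Saa3 in lung as log2(Cy5/Cy3), by BbF dose, with each point a mouse marked by its number and black bars for the mean and SD of the group. Mice 19 and 20 are the highest for all 3 genes, mouse 16 sits among the vehicle mice, and the low and medium doses overlap with vehicle.

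The calls in lung rested on few mice. Leaving out mouse 19 left changes of 0.79 for Saa1 (adjusted p = 0.076), 0.44 for Saa2 (adjusted p = 0.059) and 1.39 for Saa3, and leaving out mouse 20 left 0.98 for Saa1 (adjusted p = 0.12) and 0.62 for Saa2 (adjusted p = 0.063). The calls of both genes were also lost without vehicle mouse 2, 4 or 5, that of Saa1 without vehicle mouse 1 or 3, and that of Saa2 without mouse 17. In these fits without a vehicle mouse the changes moved little, to 1.13 to 1.24 for Saa1 and 0.59 to 0.61 for Saa2. Without high-dose mouse 16 or without mouse 18 all 3 serum amyloid A genes passed. Mice 19 and 20 were both on the third lung slide, where the high dose exceeded the 1 vehicle mouse by 2.34 for Saa1, 1.13 for Saa2 and 4.5 for Saa3. The same difference was 0.29, 0.23 and 0.14 on the first slide and 0.48, 0.52 and 0.97 on the second. With the slide as a block both Saa1 (1.09, adjusted p = 0.038) and Saa2 (0.61, adjusted p = 0.035) passed at the high dose, while the trend of Saa1 did not (1.14, adjusted p = 0.054).

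Marker lists of other cells also differed between these lungs. The mean of the neutrophil markers was 3.08 in mouse 19 and 2.77 in mouse 20, 1.76 to 2.19 in vehicle mice, and 2.97 in medium-dose mouse 14, whose Saa3 was -3.38. The mean of the mesothelium markers was 0.39 in mouse 19, -0.86 in mouse 20, -0.66 in mouse 17, -0.57 in mouse 18 and -2.14 in mouse 16, against -2.39 to 0.70 in vehicle mice, where the highest was mouse 1, whose Saa3 was -2.67. All 4 mesothelium markers, Msln, Upk3b, Lrrn4 and Wt1, were higher on average at the high dose (changes up to 1.19, lowest adjusted p = 0.28). The mean of the adipocyte markers was 4.41 in mouse 20, 3.80 in vehicle mouse 2 and 3.09 in vehicle mouse 1. Without those 3 mice the changes were 1.05 for Saa1, 0.65 for Saa2 and 2.05 for Saa3, and none of the 10 genes passed. The part of these cells in the result was not tested.

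The other 7 genes did not pass at any dose in lung. Hpx was at 0.39, 0.29, 0.30, 0.21 and 0.13 in mice 16 to 20, above the 5 vehicle mice (-0.12 to 0.11), a change of 0.26 ± 0.10 (SE, adjusted p = 0.13) while 3.55% of all probes had the 5 high-dose values all higher than in any vehicle mouse. Hp was at 5.82 ± 0.20 (SD, n = 5) at the high dose and 6.16 ± 0.17 in vehicle mice, with 4 of 5 below all vehicle mice, a change of -0.34 ± 0.11 (SE, adjusted p = 0.083) that became 0.22 with median centring. Lcn2 was at 2.18 ± 0.48 and 1.85 ± 0.44, a change of 0.33 (95% interval -0.11 to 0.77). Orm1 and Orm2 were at 0.88 and 0.96 in mouse 20, the highest of all lungs, and at 0.57 and 0.66 in vehicle mouse 2, which were the lungs with the highest adipocyte means. Vehicle mouse 1, with the next highest adipocyte mean, had Orm1 at 0.02, the lowest of the vehicle lungs, and Orm2 at 0.66. Apcs was well above background on 0 of 19 lung arrays and Fgb on 1 of 19.

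In liver, the main site of synthesis, none of the 10 genes passed at any dose. Saa1 and Saa2 varied more between mice than the others. On the first and the second slide Saa2 ranged from 5.00 (vehicle mouse 1) to 7.73 (vehicle mouse 3), with medium-dose mouse 12 at 5.28 and mouse 13 at 7.66 and high-dose mice 16 and 17 at 5.64 and 7.06. The SD over these 12 livers was 0.87 for Saa2, 0.64 for Saa1 and 0.63 for Lcn2, against 0.09 to 0.27 for the other 7 genes. On the third slide Saa2 was at 5.77 in high-dose mouse 18 and 5.26 in low-dose mouse 6 and between 1.39 and 2.20 in the other 6 mice, and Saa1 at 4.47 and 4.30 against 1.49 to 2.54.

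The liver changes of Saa1 were 0.57 (95% interval -0.32 to 1.47) at the low, 0.09 (-0.80 to 0.99) at the medium and 0.61 (-0.33 to 1.55) at the high dose. Those of Saa2 were 0.64 (-0.70 to 1.98), -0.13 (-1.47 to 1.21) and 0.74 (-0.66 to 2.15), so rises of more than 2-fold at the high dose were not excluded by these intervals. Within slides the high-dose difference of Saa2 was 0.60 on the second and 1.79 on the third, and the low-dose difference was -0.80 on the first, 1.44 on the second and 2.12 on the third. Lcn2 was at 1.31 in vehicle mouse 3 and 1.27 in high-dose mouse 17 and below 0.7 in the other 18 livers, with a high-dose change of 0.33 (-0.24 to 0.90).

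**Figure D4:**
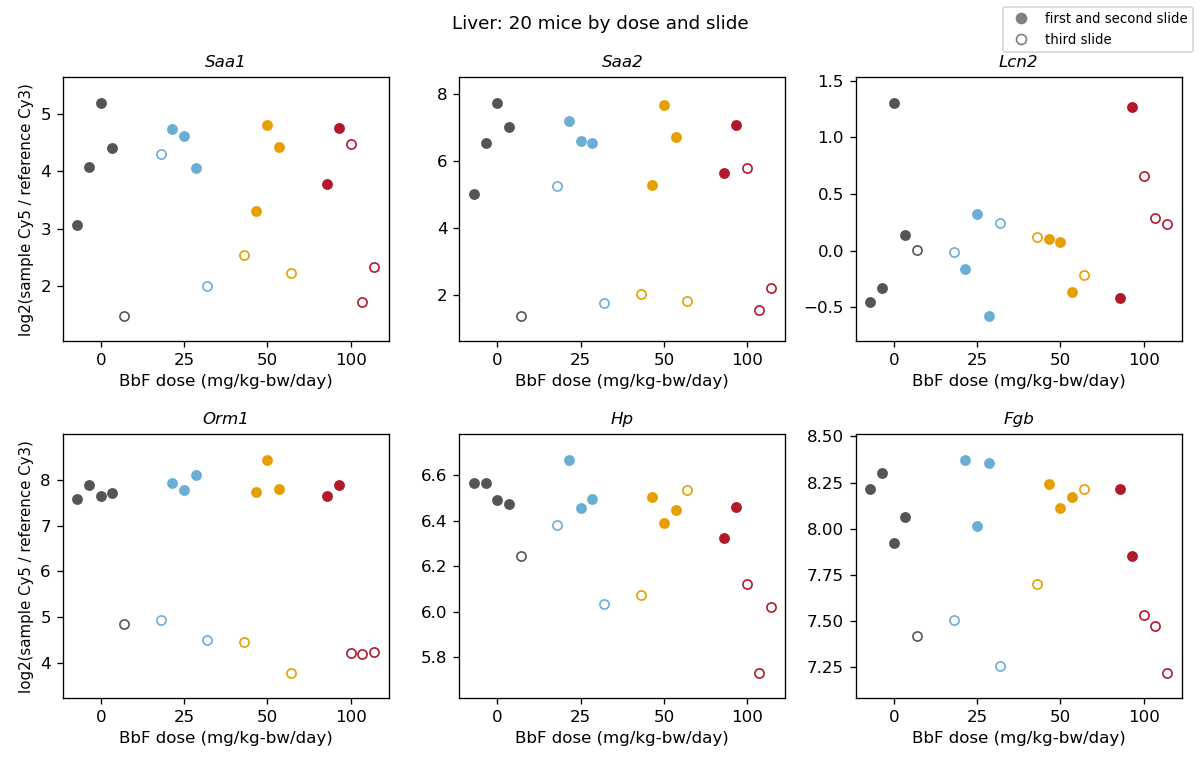
Levels of Saa1, Saa2, Lcn2, Orm1, Hp and Fgb in the 20 livers as log2(Cy5/Cy3), by BbF dose, with filled points for the first and the second slide and open points for the third. The slides separate Orm1 fully, and 2 open points of Saa1 and Saa2, low-dose mouse 6 and high-dose mouse 18, lie apart from the other open points.

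The high-dose change in liver was -0.25 ± 0.10 (SE) for Hp (limma adjusted p = 0.31), and Hp was lower at the high dose on both slides that held high-dose mice, with differences from vehicle of -0.18 on the second and -0.29 on the third. Mice 16 and 17 were below both vehicle mice of the second slide, and mice 18, 19 and 20 were below the 1 vehicle mouse of the third. The share of all probes with this order was not counted, so no weight is put on it. Fgb changed by 0.24 ± 0.12 at the medium dose (adjusted p = 0.55). Without the third slide again none of the 10 genes passed. Saa3 changed by 0.02 ± 0.14 at the high dose, but its level was measured above background in 2 of those 5 mice.

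In forestomach none of the 10 genes passed, and the largest changes came from 2 mice. At the medium dose Fgb was at 1.5, 6.35, 0.85, 1.63 and 4.54 in mice 11 to 15, against -0.13 to 1.12 in vehicle mice, a change of 2.41 ± 0.76 (SE, limma adjusted p = 0.84). Hpx was at 0.50, 5.89, 0.59, 0.92 and 2.86 in the same mice and at -0.57 to 0.41 in vehicle mice, a change of 2.20 ± 0.70 (adjusted p = 0.84). All 5 medium-dose mice were above all vehicle mice for Hpx, as were 0.428% of all probes, and 4 of 5 for Fgb. Mice 12 and 15 stood above the other 18 mice for both genes, among which low-dose mouse 7 was next (Fgb 2.46, Hpx 1.23).

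The hepatocyte markers were high in the same mice. Their mean was 4.34 in mouse 12 and 2.46 in mouse 15, and 0.24 to 1.93 in the others. Albumin (Alb) was at 4.79 and 4.30 in mice 12 and 15 and at 3.41 in mouse 7, and the apolipoprotein Apoa2 at 3.18 and 2.01, against -0.22 to 0.68 in the other mice. All 7 hepatocyte markers had positive changes at the medium dose (median 1.14, lowest adjusted p = 0.84). Without mice 12 and 15 none of the 10 genes passed, and the change was 0.76 for Fgb and 0.72 for Hpx. Their part in the result was not tested.

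Hp in forestomach followed other mice as well. It was at 3.84 in mouse 12, 1.86 in mouse 15, 2.48 in vehicle mouse 5 and 1.02 in vehicle mouse 3, and between -1.53 and -0.22 in the other 16 mice. The mean of the adipocyte markers was highest in mouse 5 (4.97), mouse 3 (4.19), mouse 15 (3.85), mouse 8 (3.18) and mouse 12 (2.89), and Hp in mouse 8 was -0.27. Orm1 and Orm2 were highest in mouse 12 (3.26 and 3.35), with 1.81 and 1.71 in vehicle mouse 5 and 1.73 and 1.76 in low-dose mouse 8. Saa1, Saa2 and Saa3 were highest in mouse 12 as well, at -0.49, 1.12 and -3.17, against vehicle maxima of -1.08, 0.59 and -3.40. Lcn2 was 0.32 ± 0.13 (SE) lower at the low dose (adjusted p = 0.98).

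**Figure D5:**
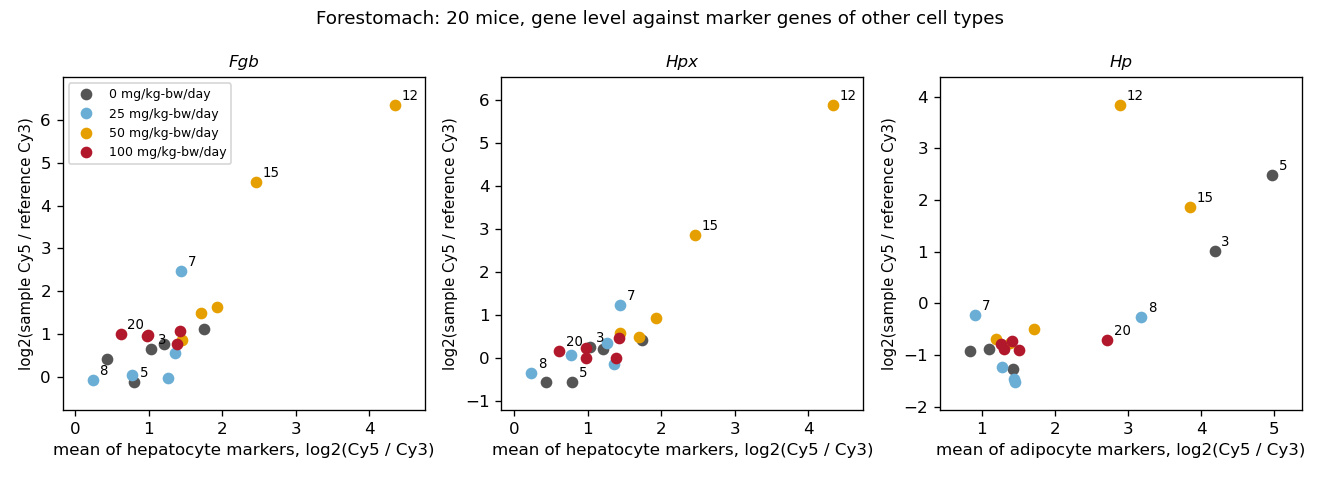
Level of Fgb, Hpx and Hp in the 20 forestomachs (vertical axis) against the mean level of hepatocyte or adipocyte marker genes (horizontal axis), both as log2(Cy5/Cy3), with colours for the dose and numbers for the mice named in the text. Mice 12 and 15 are highest in Fgb, Hpx and the hepatocyte mean, and Hp is above 1 in mice 3, 5, 12 and 15 only, which also have high adipocyte means.

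Whether the high-dose change differed between tissues was tested as an interaction. The Saa3 change in lung exceeded that in liver by 2.02 ± 0.69 (SE, limma adjusted p = 0.15) and that in forestomach by 2.16 ± 0.69 (adjusted p = 0.15). Saa3 was well above background in only 2 of the 5 high-dose livers, so its liver change is only partly measured. The Saa1 and Saa2 changes in lung exceeded those in forestomach by 1.15 ± 0.43 (adjusted p = 0.26) and 0.76 ± 0.25 (adjusted p = 0.17), and differed from those in liver by 0.58 (95% interval -0.69 to 1.85) and -0.11 (-1.69 to 1.47). None of the 10 genes passed in any pair of tissues, where 1.12% (lung and liver), 0.763% (lung and forestomach) and 0.0575% (liver and forestomach) of all probes did, and an unadjusted limma p under 0.05 was found for 1, 3 and 0 of the 10 (12.6%, 10.4% and 7.45% of all probes). The lung calls of Saa1 and Saa2 are thus not shown to be particular to lung. With median centring the Saa3 difference between lung and liver passed (2.33, adjusted p = 0.020), with the same limit on its liver side.

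Levels of a gene in different tissues of the same mouse were compared after removal of the dose group means and, in liver, of the slide effect. Of the 30 relations (10 genes, 3 pairs of tissues, 19 or 20 mice), none passed after adjustment. Saa1 in lung and liver gave r = -0.40 and rho = -0.28 (permutation p = 0.086 for r, adjusted p = 0.69, and r = -0.44 without the 2 mice farthest from the median). Saa3 in lung and liver gave r = 0.18 and rho = 0.23 (permutation p = 0.47, adjusted p = 0.72). The smallest p was that of Apcs in liver and forestomach, with r = 0.52 and rho = 0.37 (permutation p = 0.020, adjusted p = 0.59), which fell to r = 0.18 without 2 mice. Apcs was well above background on 1 of 20 forestomach arrays, so its order there is mostly not measured. High-dose mice 19 and 20, with the highest lung Saa1 and Saa3, had liver Saa1 of 1.72 and 2.33, in the range of the third slide without mice 6 and 18.

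Among the other genes of the pathway, 0 of 18 further positive acute phase genes passed at any dose in any tissue, and 0 of 7 negative ones. In lung at the high dose the 18 had a median change of 0.09, beside -0.0038 over all probes. Complement factor B (Cfb) was at 0.77 ± 0.32 (SE, adjusted p = 0.19), Serpina3n, a protease inhibitor, at 0.63 ± 0.25 (adjusted p = 0.16) and complement C3 at 0.61 ± 0.24 (adjusted p = 0.16). Others of the 18 went the other way. Hamp was at 1.48, -0.18, -0.15, -0.20 and 0.64 in high-dose mice 16 to 20, against 0.02 to 2.61 in vehicle mice. Cd14 was at -2.07 to -1.43, against -1.69 to -0.68 in vehicle mice. These genes were named after their values were seen. In liver at the high dose the 7 negative genes, among them albumin and transthyretin, were all below vehicle, with a median of -0.25 beside -0.0017 over all probes. Rbp4 (-0.45, limma adjusted p = 0.030) and Trf (-0.52, adjusted p = 0.036) among them missed only the 1.5-fold limit. So did Steap4 of the positive genes (0.57, adjusted p = 0.024). With median centring the adjusted p of Rbp4, Trf and Steap4 was 0.22, 0.29 and 0.27. With the authors' ratios it was 0.084 for Rbp4 (-0.36) and for Trf (-0.35), and 0.023 for Steap4 (0.58). The metal-binding Mt1 passed in the liver trend only (1.01 ± 0.22, adjusted p = 0.028). In forestomach at the medium dose the medians were 0.42 for the 18 positive and 1.82 for the 7 negative genes, of which Alb and Ttr are also hepatocyte markers.

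Of 15 cytokine signalling genes, 1 passed in lung at the high dose, Il1b, which encodes interleukin 1 beta. It was at 3.12 ± 0.56 (SD, n = 5) at the high dose and 1.99 ± 0.45 in vehicle mice, a change of 1.14 ± 0.29 (SE, adjusted p = 0.020). The oncostatin M receptor Osmr had an adjusted p of 0.0037 at a change of -0.51, under the 1.5-fold limit, and its change was -0.0016 with median centring. Nfkbia (-0.42, adjusted p = 0.021), Il6st (-0.38, adjusted p = 0.031) and Nfkb1 (-0.32, adjusted p = 0.038) were also lower in lung, under the same limit. With median centring their changes were 0.096, 0.11 and 0.024. In liver 1 of the 15 passed, Socs3, the feedback inhibitor of STAT3, at the medium dose (0.79 ± 0.16, adjusted p = 0.040), while it did not with median centring (0.75, adjusted p = 0.10). Of the 5 receptor and clearance genes, such as Cd163 and Lrp1, none passed. Of 9 neutrophil genes on the array, Retnlg and S100a8 passed in lung at the high dose (1.26 ± 0.33 and 1.20 ± 0.34, adjusted p = 0.026 and 0.040). Elane and Mpo of this list, named after their values were seen, went the other way there. Elane was at 0.11 to 0.21 at the high dose and 0.18 to 0.44 in vehicle mice, and Mpo at -0.64 to -0.12 and -0.34 to 0.21. S100a9 passed in liver at the medium and high doses (1.36 ± 0.26 and 1.95 ± 0.27, adjusted p = 0.025 and 0.00097), but not with median centring (adjusted p = 0.14 and 0.055). Elane was lower in liver, at 0.48 and 0.62 in high-dose mice 16 and 17 against 0.99 and 0.80 in vehicle mice 1 and 2 of their slide. Of 5 macrophage genes, the scavenger receptor Marco passed in lung at the high dose (1.30 ± 0.35, adjusted p = 0.027). Csf1r of the same list was lower there, under the 1.5-fold limit (-0.39, adjusted p = 0.044), and its change was -0.08 with median centring.

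The genes whose levels were most like those of Saa1 and Saa2 were sought in liver, where their means are highest, over 20 arrays with the slide effect removed, among 20045 probes well above background on at least 10 arrays. The highest Pearson correlations with Saa1 were those of Wipi2 (0.75), Med4 (0.72) and Tbcd (0.71), and those with Saa2 were Wipi2 (0.74), Eppk1 (0.72) and Tbcd (0.71). These are the top of a long ranking over few arrays, and they are descriptions only.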

How the data were processed

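RNA from lung, liver and forestomach was measured on 59 Agilent SurePrint mouse arrays with 62976 spots each. The deposited intensity values are median spot signals from Feature Extraction 10.7.3.1, without background correction. The authors also deposited log2 ratios normalized by LOWESS, which correlated with the ratios computed here at r = 0.967 to 0.999 and were used as an alternative. Here control spots were left out, ratios were normalized by loess within each array, and spots of a probe were averaged. Probes were named through their RefSeq accessions (26413 of 55681 matched), and probe sequences were not used here. Limma 3.58.1 in R 4.3.3 (lmFit, eBayes) was fitted to all 55681 probes, per tissue over 4 dose groups, with the slide as a block in liver, and Benjamini-Hochberg adjustment ran over all probes. The permutation-based Fs test named in the study's methods was replaced by limma. Levels between tissues were fitted in vehicle mice, and differences of the high-dose change by an interaction term. A mouse number marks the same animal in every tissue, so mouse was tried as a replicate block. Deviations from group means correlated weakly between tissues of a mouse (median r 0.044 for lung and liver, 0.034 for lung and forestomach, 0.028 for liver and forestomach).

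The 10 genes were all named in every tissue. Of the other lists (further positive and negative acute phase proteins, cytokine signalling, receptors and clearance, and markers of neutrophils, macrophages, adipocytes, hepatocytes, lung and squamous epithelium and mesothelium), genes that passed were named and the rest counted, with exceptions said. The genes most like a member were the 3 with the highest correlation, for members that passed at a dose. Members and lists were chosen with earlier results of these data known. Alternatives were median centring, normexp background correction with an offset of 50, the authors' ratios, a filter on dim probes (well above background on at least 4 arrays of a group), other slide terms, leaving out the third liver slide or each mouse, and, chosen after seeing the data, leaving out mice with high hepatocyte or adipocyte markers. The number of arrays limits the precision, and within a tissue each array came from a different mouse.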

Additional observations from a re-analysis of the deposited data

Results flagged for a closer look

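In 9 of 120 groups of a gene, tissue and dose, 1 mouse lay apart by Dixon's ratio, the gap to its nearest neighbour over the whole range of the group, at the 95% critical value. Chance alone flags about 1 in 20 groups. On the third liver slide were Orm1, Orm2 and Apcs of vehicle mouse 5 (ratios 0.899, 0.895 and 0.911), each far below the other vehicle livers. In liver, Saa1 of low-dose mouse 10 (ratio 0.754) and Fgb of medium-dose mouse 11 (ratio 0.760), also on that slide, were the lowest of their groups. In lung, Orm1 of high-dose mouse 20 was the highest of its group (ratio 0.748), and Saa2 of low-dose mouse 10 the lowest (ratio 0.940), although Saa2 was well above background on 0 of the 4 low-dose lung arrays, so that its order there is not measured. In forestomach, Saa3 of high-dose mouse 18 (ratio 0.746) and Fgb of low-dose mouse 7 (ratio 0.747) were the highest of their groups.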

How the results depend on the processing

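With median centring the Hp change in lung turned from -0.34 to 0.219 at the high dose and from -0.32 to 0.202 in the trend, and 1 of the 10 genes (Saa3) passed in the difference between lung and liver. With the slide as a block 1 gene in place of 2 passed in the lung trend. Without vehicle mice 1 and 2 and high-dose mouse 20, chosen after seeing the data, 0 passed in lung at the high dose. Leaving out each mouse gave 0 to 3 genes in lung at the high dose, 0 to 1 in each of the differences of lung from liver and from forestomach, 2 to 5 between lung and forestomach levels (5 without mouse 5), and 8 to 9 between liver and lung. The replicate block by mouse ended the Saa3 call between liver and lung (adjusted p = 0.059) and changed no other call.

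Counts over all probes moved more. Median centring turned 807 calls in lung at the high dose into 3504, 683 in the lung trend into 2647, 139 in liver at the high dose into 24, 154 in the liver trend into 17 and 39 in forestomach at the high dose into 143. Without the slide block liver at the high dose had 2 calls, and without the third slide 350. The mean over all probes of a gene changes nothing, since each gene had 1 probe. Among the dim probes were Apcs, Fgb, Saa2, Orm1 and Orm2 in lung, well above background on 0, 1, 5, 3 and 3 of 19 arrays. Saa3 on the third liver slide was another, on 0 of 8. Their changes and differences there are not exact, and a bound is given only where the text says so.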

Other observations

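Related genes were compared over arrays of 1 tissue (16 relations, liver slides apart, permutation tests adjusted over the 16). Unlike in the relations between tissues, the dose group means were left in. Saa1 and Saa2 moved together in liver, with r = 0.96 and rho = 0.96 over the 12 mice of the first and the second slide (adjusted p = 5.3e-05 for both, from the smallest p that the permutations can give) and r = 0.91 without the 2 mice farthest from the median. Saa1 and Saa3 did not pass in the same 12 livers, with r = 0.28 and rho = 0.15 (adjusted p = 0.43 and 0.74). In lung they gave r = 0.97 and rho = 0.78 over 19 mice (adjusted p = 5.3e-05 and 0.00092) and r = 0.85 without high-dose mice 19 and 20. Orm1 and Orm2 gave r = 0.94 and rho = 0.85 in forestomach (adjusted p = 5.3e-05 for both) and r = 0.83 without mice 12 and 5. In lung they gave r = 0.72 and rho = 0.36 (adjusted p = 0.0046 and 0.17), and r = 0.13 without mice 20 and 2, so that relation rests on those mice. Each of these genes was well above background on 3 of 19 lung arrays, so their order there is mostly not measured. Saa1 and Saa2, like Orm1 and Orm2, are closely related genes, and how far their probes share signal was not tested.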
